A study of Rattus norvegicus with 8 samples.

Results

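Endothelial cells line the capillaries, arteries, veins and endocardium of the heart, and 10 genes that mark them and carry their main signals are described here across 4 groups of old rat hearts. The genes are Kdr, Flt1, Tek, Tie1, Eng, Nos3, Pecam1, Cdh5, Vwf and Plvap. They were chosen by name, and every probe set annotated to exactly 1 of these symbols was taken. That gave 12 probe sets for 9 of the 10 genes, among 31099 probe sets on the array. Cdh5, the vascular endothelial cadherin of the cell junction, had no probe set annotated to it alone in the annotation used here, so it has no value. Of the 12 probe sets, 11 were bright enough to be tested, among 18625 tested in all, and all 9 genes kept at least 1.

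The hearts came from female Norway Brown rats aged 18 to 22 months, and RNA was measured on 8 Affymetrix expression arrays. In the Late estrogen group the rats were ovariectomized and received, 9 weeks after surgery, a subcutaneous pellet of 0.5 mg 17-β estradiol that releases the hormone over 90 days. In the Early estrogen group the same pellet was placed at the ovariectomy itself. The Ovx group was ovariectomized and received no hormone. The Sham group had the body cavity opened and closed and kept its ovaries, so the other 3 groups share the ovariectomy. Each group has 2 arrays, and each array holds an equal pool of RNA from 3 hearts, so the spread between arrays is a spread between pools and not between animals. The sources used here do not give the time from surgery to collection of the hearts, so the length of exposure in the 2 estradiol groups is not known from them.

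The products of these genes act together. Vascular endothelial growth factors bind the receptor tyrosine kinases encoded by Kdr and Flt1, of which Kdr carries most of the growth signal and Flt1 binds ligand tightly while signalling weakly. Angiopoietins bind Tek, and Tie1 is its related partner without a ligand of its own among the classic angiopoietins. Eng is a co-receptor for bone morphogenetic protein signals, and Nos3 makes the nitric oxide that relaxes vessels. Pecam1 and Cdh5 hold endothelial cells to each other, Vwf is the clotting glycoprotein stored in endothelial granules, and Plvap forms the diaphragms of caveolae and fenestrae. In mouse and human tissue Plvap is known as more abundant in venous and fenestrated endothelium than in the continuous capillaries of the heart muscle. Estradiol is known to act on endothelial cells through estrogen receptors, with nitric oxide synthesis among its targets.

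Promoter sequences are shown for the 2 growth factor receptors, for Tie1 and for Plvap, because the receptors form families that can be compared and because Plvap had the smallest and Tie1 the largest p of the test over the 4 groups. RefSeq's table for the GRCr8 assembly held a promoter for 6 of the genes, which are Eng, Nos3, Tie1, Flt1, Kdr and Plvap. Vwf, Pecam1, Tek and Cdh5 had none in it. The 250 bases before each annotated start were read 5′ to 3′ on the gene's strand. Capitals mark the ETS core (AGGAAG or CTTCCT), the GC box (GGGCGG or CCGCCC) and the TATA box (TATAAA or TTTATA), each searched on both strands. Plvap is read from chr16:18231280-18231529 on the minus strand, Kdr from chr14:32571813-32572062 on the plus strand, Flt1 from chr12:12333180-12333429 on the plus strand, and Tie1 from chr5:137304982-137305231 on the minus strand.
Plvap: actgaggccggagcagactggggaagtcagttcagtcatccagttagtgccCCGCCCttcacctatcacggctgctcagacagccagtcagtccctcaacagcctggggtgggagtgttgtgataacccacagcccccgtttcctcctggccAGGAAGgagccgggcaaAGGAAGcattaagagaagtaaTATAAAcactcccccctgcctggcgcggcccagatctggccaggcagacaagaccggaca
Kdr: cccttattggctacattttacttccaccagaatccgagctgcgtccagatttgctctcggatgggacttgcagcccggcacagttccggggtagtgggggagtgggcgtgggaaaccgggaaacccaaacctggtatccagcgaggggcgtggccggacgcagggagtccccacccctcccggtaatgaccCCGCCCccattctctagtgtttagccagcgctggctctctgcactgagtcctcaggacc
Flt1: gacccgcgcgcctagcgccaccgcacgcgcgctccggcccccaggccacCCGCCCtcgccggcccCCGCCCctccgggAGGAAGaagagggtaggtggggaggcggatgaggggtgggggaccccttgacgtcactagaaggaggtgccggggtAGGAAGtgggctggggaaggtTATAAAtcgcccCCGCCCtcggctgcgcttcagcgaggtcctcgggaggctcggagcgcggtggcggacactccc
Tie1: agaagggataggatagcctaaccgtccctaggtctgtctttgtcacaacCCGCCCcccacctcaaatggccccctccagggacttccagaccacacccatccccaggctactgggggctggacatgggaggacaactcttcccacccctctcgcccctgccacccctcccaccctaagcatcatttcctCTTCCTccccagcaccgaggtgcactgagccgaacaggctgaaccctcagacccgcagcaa

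The ETS core was found in 5 of the 6 promoters, with Kdr the exception, and in 29.5% of all 33469 rat promoters of the same length. The GC box was found in 5 of 6, with Eng the exception, and in 30.5% of all. The TATA box was found in Flt1 and Plvap, and in 12.9% of all. In Plvap it lies 60 to 55 bases before the start, between the start and 2 ETS cores that lie 81 to 76 and 98 to 93 bases before it. The estrogen response half-site AGGTCA was in none of the 6 and in 14.1% of all, and the palindromic estrogen response element was in none of the 6 and in 0.0239% of all. The half-site and the palindrome share letters, so their matches can overlap. The GATA letters AGATAA, in 10.3% of all, and the longer ETS site CCGGAAGT, in 3.1% of all, were also absent from the 6. These are matches of letters in a short window and say nothing of binding.

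All values that follow are log2 of the deposited signal after quantile normalization across the 8 arrays, unless a sentence says otherwise, and a difference of 1 on this scale is a 2-fold difference. Levels of different probe sets are not set against each other. Differences were tested with limma, adjusted by Benjamini-Hochberg over all 18625 probe sets, and no probe set of the array passed an adjusted p of 0.05 in any of the 6 comparisons or in the test over the 4 groups. A gene past that level would be named as called. Without replicate 2 of Late estrogen, 100 probe sets were called in Late estrogen minus Early estrogen, 65 in Late estrogen minus Ovx and 86 in Late estrogen minus Sham, none of them for the genes described here. The differences below are therefore descriptions with their errors. With 2 pools a group, a p rests on spread between pools and not between animals. Limma also draws that spread toward that of other probe sets of similar signal.

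The arrays differed before normalization. The trimmed mean of the deposited signal was between 28.2 and 137.5, and replicate 1 of Late estrogen was the dimmest. The ratio of the 3′ to the 5′ Gapdh control, a sign of RNA integrity and labelling, was 2.70 on that array and 1.26 to 1.65 on the other 7. The same ratio for actin did not set that array apart. It was 3.01 there, 3.06 on replicate 2 of Ovx and 1.71 to 2.75 on the rest. After normalization, arrays of different groups that are both labelled replicate 2 correlated at 0.895 to 0.914 across probe sets, above the 0.832 to 0.868 of the 2 arrays of 1 group. Values within replicate 1 and within replicate 2 are therefore given beside the differences that matter. The replicate 1 array of Late estrogen was the highest of all 8 for 4 of the 9 genes, which are Vwf, Kdr, Tek and Tie1, and the part of array quality in that was not tested.

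**Figure D1:**
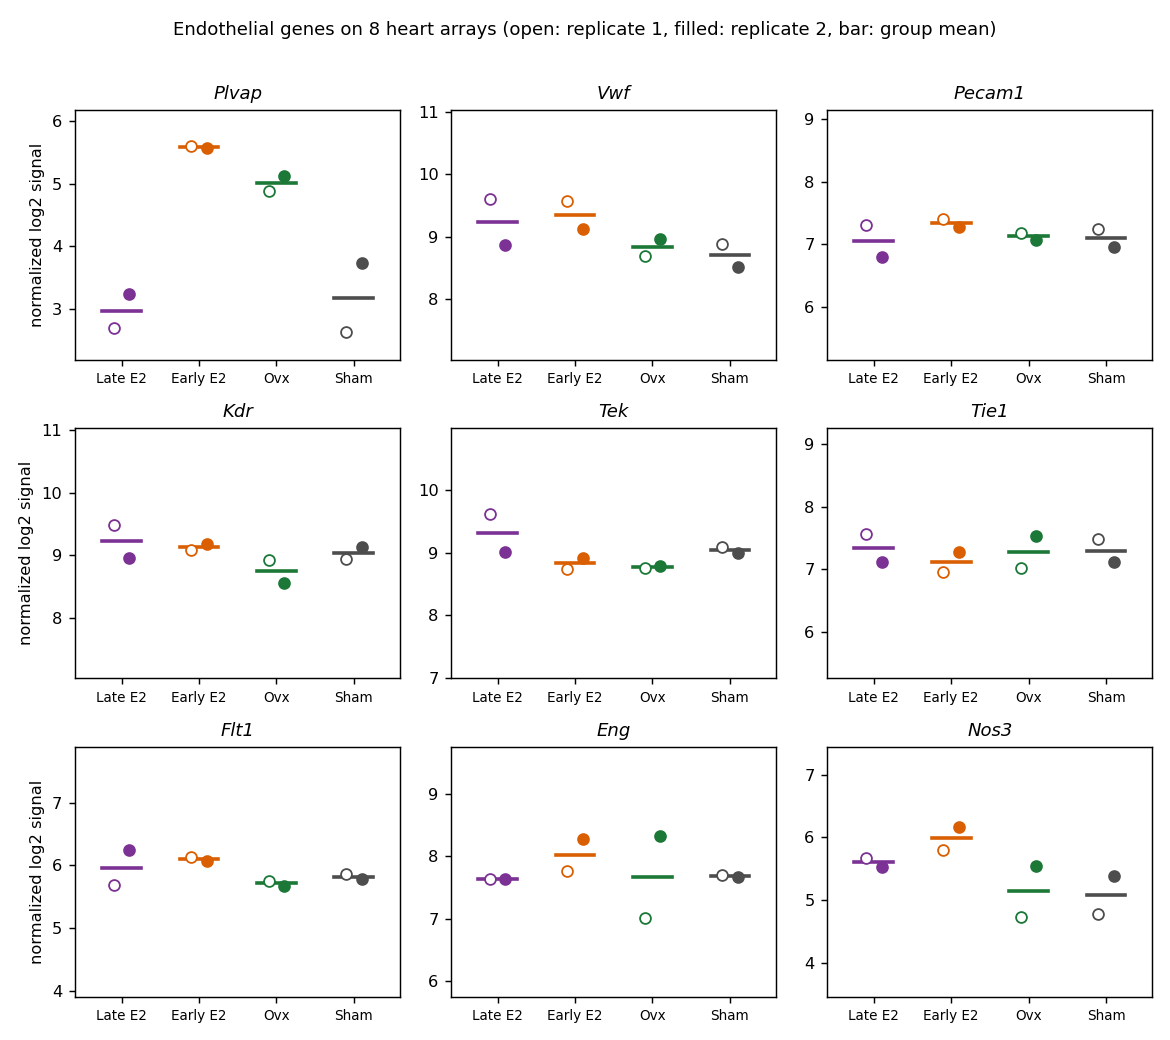
Normalized log2 signal (vertical axes) of the 9 endothelial genes in Late estrogen (Late E2, estradiol), Early estrogen (Early E2), Ovx and Sham hearts. Open points are replicate 1, filled points replicate 2 and bars group means; every panel spans the same number of log2 units. Plvap is high on the 4 Early estrogen and Ovx arrays, between 4.89 and 5.60, and low on the 4 Late estrogen and Sham arrays, between 2.64 and 3.73.

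Plvap showed the widest separation of the groups. Its log2 signal was 2.69 and 3.25 in the 2 Late estrogen pools, 5.60 and 5.57 in the 2 Early estrogen pools, 4.89 and 5.13 in the 2 Ovx pools, and 2.64 and 3.73 in the 2 Sham pools. The lowest of the 4 Early estrogen and Ovx values lies above the highest of the 4 Late estrogen and Sham values, while Late estrogen and Sham overlap. In the deposited signal, before any normalization, the values were 3.68 and 12.5 in Late estrogen, 31.7 and 83.2 in Early estrogen, 20.7 and 52.0 in Ovx, and 7.29 and 13.9 in Sham hearts. This probe set is dim, at percentile 48.0 of mean signal among all probe sets without controls.

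Set against the median of its own array, the deposited Plvap signal was 0.277 and 0.414 of the median in Late estrogen, 1.96 and 2.45 in Early estrogen, 1.22 and 1.56 in Ovx, and 0.275 and 0.538 in Sham hearts. It was thus above the array median on all 4 arrays of Early estrogen and Ovx, and below it on all 4 of Late estrogen and Sham. The other 8 genes were above the median on all 8 arrays.

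**Figure D2:**
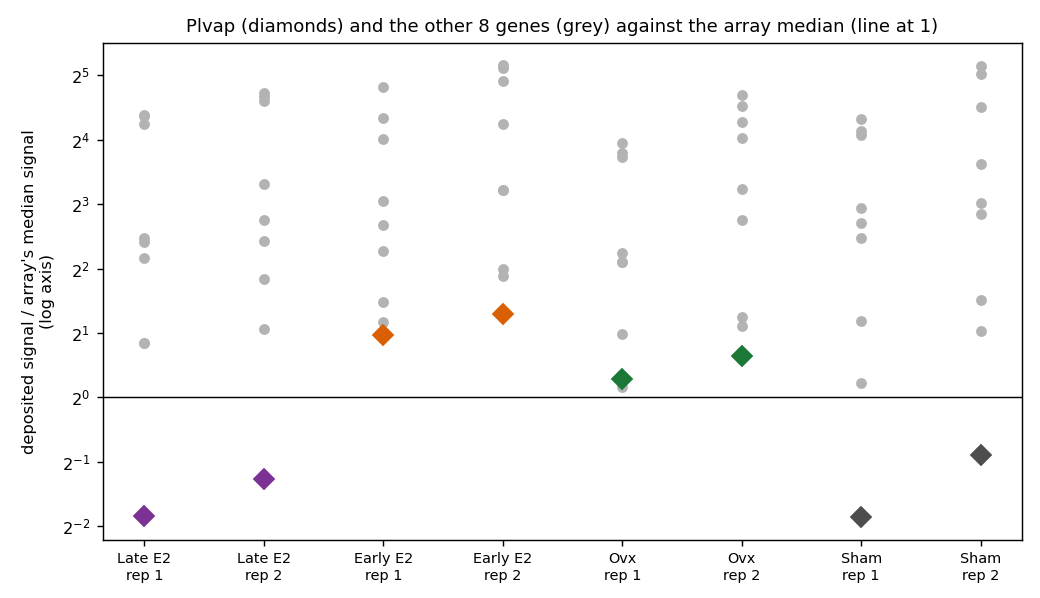
Deposited signal of each of the 9 genes divided by the median signal of its own array (vertical axis, log scale), by array, with Late estrogen (Late E2), Early estrogen (Early E2), Ovx and Sham from left to right. Diamonds are Plvap, grey points the other 8 genes and the line is the array median: Plvap lies between 0.275 and 0.538 on the Late estrogen and Sham arrays and between 1.22 and 2.45 on the Early estrogen and Ovx arrays.

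By group mean, Plvap was highest in Early estrogen at 5.59 and next in Ovx at 5.01, then 3.18 in Sham and 2.97 in Late estrogen. The Sham and Late estrogen means lie below 3.69, the mean log2 signal a probe set needed to be tested, so Plvap passed that filter only through Early estrogen and Ovx. Detection calls were not used here, so no fold change is given and the differences are a description of this probe set. Late estrogen was lower than Early estrogen by a log2 difference of -2.62 ± 0.65 (SE), with -2.91 within replicate 1 and -2.32 within replicate 2 (limma adjusted p = 0.987). Late estrogen was also lower than Ovx, by -2.04 (limma adjusted p = 0.943), with -2.20 and -1.88 within the replicates. These differences hold in both replicates but do not pass the adjustment over the array.

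Plvap in Ovx was higher than in Sham by 1.83 (limma adjusted p = 1), with 2.26 and 1.40 within the replicates. In Early estrogen it was higher than in Sham by 2.40 (limma adjusted p = 1). The neighbours at the ends of this order did not separate beyond their error: Early estrogen minus Ovx was 0.57 with a 95% interval of -0.89 to 2.03, and Late estrogen minus Sham was -0.21 with an interval of -1.67 to 1.25. In the test over the 4 groups 1.86% of probe sets had an unadjusted p under 0.05 and 0% passed the adjustment. Of the 9 genes 1, Plvap, was under 0.05 there (limma adjusted p = 1). With the replicate number as a block 2 were, Plvap and Vwf, and the share of all probe sets with the block is not given here. Because Plvap passed the filter only through the groups where it is high, its place in these counts and those below is a description only.

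The size of the Plvap difference depends on how its low signals are treated. With 32 added to each signal before log2, Late estrogen minus Early estrogen became -1.03, Late estrogen minus Ovx -0.70, Early estrogen minus Sham 0.97 and Ovx minus Sham 0.64. The sign of each of these, and of Early estrogen minus Ovx, was the same in all 15 alternative settings in which Plvap had a value. Late estrogen minus Sham had the other sign in 3 of the 15.

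Kdr, the main receptor for vascular endothelial growth factor, had log2 signals of 9.49 and 8.95 in Late estrogen, 9.09 and 9.17 in Early estrogen, 8.92 and 8.55 in Ovx, and 8.94 and 9.13 in Sham hearts. The 2 Ovx values lie below all the others. Late estrogen was higher than Ovx by 0.48 ± 0.22 (SE; 0.56 and 0.40 within the replicates), and Early estrogen was higher than Ovx by 0.39 (0.16 and 0.62). Ovx was lower than Sham by -0.29, a difference of -0.01 within replicate 1 and -0.57 within replicate 2. The order of the means was Late estrogen, Early estrogen, Sham, Ovx, and no neighbours in it differed at an unadjusted p of 0.05. A second Kdr probe set lies at percentile 10.3 of signal and was not tested.

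Flt1, the other growth factor receptor, was represented by its brightest probe set, with 5.69 and 6.25 in Late estrogen, 6.13 and 6.07 in Early estrogen, 5.76 and 5.67 in Ovx, and 5.86 and 5.78 in Sham hearts. The 2 Early estrogen pools lie above the Ovx and Sham pools and inside the range of Late estrogen. Early estrogen was higher than Ovx by 0.39 ± 0.32 (SE; 0.37 and 0.40 within the replicates). A further Flt1 probe set gave a larger difference of the same sign, 0.86 ± 0.45, and the dimmest gave 0.87 ± 1.12. The dimmest was 1.73 on the replicate 1 array of Late estrogen and 4.84 on replicate 2, so its spread within Late estrogen exceeded every difference between groups.

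Of the other genes of growth factor signalling, 14 were listed and 11 tested, among them the ligands, the neuropilin co-receptors and the hypoxia factors. None was called in any of the 6 comparisons. In Late estrogen against Early estrogen 10 of the 11 were higher, with a median difference of 0.24 against -0.01 over all tested probe sets. That median was 0.43 within replicate 1, which holds the dimmest array, and 0.06 within replicate 2, where 6 of the 11 were higher. Against Ovx, Late estrogen had 9 higher and 2 lower. The gene of smallest p was Nrp2, a co-receptor for growth factors of veins and lymphatics, which was lower in Early estrogen than in Ovx by -0.80 ± 0.31 (SE; -0.73 and -0.87 within the replicates; limma adjusted p = 1) and lower than in Sham by -0.77 (limma adjusted p = 1). Vegfc, a ligand of lymphatic growth, was lower in Ovx than in Sham by -0.67 ± 0.36.

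Tek, the angiopoietin receptor, had log2 signals of 9.63 and 9.01 in Late estrogen, 8.75 and 8.92 in Early estrogen, 8.76 and 8.79 in Ovx, and 9.10 and 9.01 in Sham hearts. The 4 Early estrogen and Ovx values lie below the 4 Late estrogen and Sham values, which is the opposite arrangement to that of Plvap. Late estrogen was higher than Ovx by 0.54 ± 0.22 (SE; limma adjusted p = 0.943) and higher than Early estrogen by 0.49 ± 0.22 (limma adjusted p = 0.987). The differences were 0.86 and 0.88 within replicate 1, which holds the dimmest array, and 0.22 and 0.09 within replicate 2. Late estrogen minus Early estrogen was -0.13 without normalization between arrays, where the median of all probe sets was itself lower, as given below. In the order Late estrogen, Sham, Early estrogen, Ovx no neighbours differed at an unadjusted p of 0.05.

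Tie1, the partner of Tek, had 7.56 and 7.11 in Late estrogen, 6.96 and 7.28 in Early estrogen, 7.02 and 7.54 in Ovx, and 7.49 and 7.11 in Sham hearts. All 4 groups overlap. Its test over the groups gave the largest p of the 9 genes, and the 6 differences lay between -0.18 and 0.22, each with an SE of 0.29. Of 9 listed partners of this receptor system, 6 were tested. They include Ptprb, the endothelial phosphatase that acts on Tek, which was higher in Late estrogen than in Ovx by 0.48 ± 0.21 (SE; 0.59 and 0.36 within the replicates; limma adjusted p = 0.943). Foxo1, a transcription factor restrained by this pathway, was higher in Ovx than in Sham by 1.02 ± 0.59, with 0.12 within replicate 1 and 1.91 within replicate 2.

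Eng, the co-receptor for bone morphogenetic proteins, had 7.63 and 7.63 in Late estrogen, 7.77 and 8.28 in Early estrogen, 7.02 and 8.33 in Ovx, and 7.71 and 7.66 in Sham hearts. The Ovx pools span more than all the other pools together, and Early estrogen lies above both Late estrogen and Sham. Early estrogen was higher than Sham by 0.34 ± 0.37 (SE; 0.06 and 0.62 within the replicates), and Late estrogen was lower than Early estrogen by -0.40 ± 0.37. The first is smaller than its SE and the second only slightly larger. Of 19 listed ligands, receptors, SMAD proteins and targets of this pathway 16 were tested and none was called. In Ovx 13 of the 16 were lower than in Sham, with a median of -0.08 against -0.03 over all probe sets, and 0.01 within replicate 1 and -0.14 within replicate 2. The smallest p was that of Smad7, an inhibitor of the pathway, at -0.68 ± 0.31 (-0.98 and -0.38 within the replicates). Bmpr1a, a receptor of the family, was lower in Late estrogen than in Sham by -1.08 ± 0.40 (-1.75 and -0.42; limma adjusted p = 0.997).

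Nos3, the endothelial nitric oxide synthase, had 5.68 and 5.53 in Late estrogen, 5.80 and 6.16 in Early estrogen, 4.73 and 5.55 in Ovx, and 4.78 and 5.39 in Sham hearts. The 2 Early estrogen pools are the highest of the 8, and Late estrogen lies above Sham but not above both Ovx pools. Early estrogen was higher than Ovx by 0.84 ± 0.42, or 1.80-fold (SE; 1.07 and 0.62 within the replicates), and higher than Sham by 0.90 ± 0.42, or 1.87-fold (1.03 and 0.77). Late estrogen was higher than Ovx by 0.46, with 0.95 within replicate 1 and -0.02 within replicate 2. The difference between the estradiol groups themselves was -0.38 ± 0.42 (Late estrogen minus Early estrogen), which does not exceed its error.

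Of 20 other genes of nitric oxide synthesis and response, 12 were tested and none was called. Early estrogen had 9 of the 12 higher than Ovx, with a median of 0.12, and Late estrogen had 6 higher and 6 lower than Ovx. Cav2, a caveolar coat protein, was higher in Late estrogen than in Sham by 0.82 ± 0.26 (SE; 0.95 and 0.69 within the replicates; limma adjusted p = 0.997), than in Ovx by 0.69 and than in Early estrogen by 0.65. Cav1, the main caveolin of endothelium and an inhibitor of the synthase, was higher in Late estrogen than in Ovx by 0.43 ± 0.23. Gucy1b1, a subunit of the nitric oxide receptor guanylate cyclase, was higher in Early estrogen than in Ovx by 0.55 ± 0.34.

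Pecam1, an adhesion molecule at the borders of endothelial cells and a common measure of how much endothelium a sample holds, had 7.30 and 6.79 in Late estrogen, 7.40 and 7.27 in Early estrogen, 7.18 and 7.07 in Ovx, and 7.24 and 6.96 in Sham hearts. Early estrogen was above Ovx and Sham, with no overlap, by 0.21 and 0.24, and each SE was 0.26. Late estrogen overlaps every other group. In these pools fewer endothelial cells and less RNA per cell cannot be told apart, which holds for every gene described here. Of 13 listed junction genes 11 were tested and none was called. Jup, the junction protein plakoglobin that heart muscle cells also make in quantity, was lower in Late estrogen than in Early estrogen by -0.76 ± 0.19 (SE; -0.57 and -0.94 within the replicates; limma adjusted p = 0.987) and lower than in Ovx by -0.56 (limma adjusted p = 0.943).

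Vwf, the von Willebrand factor, had 9.61 and 8.87 in Late estrogen, 9.56 and 9.13 in Early estrogen, 8.70 and 8.97 in Ovx, and 8.89 and 8.52 in Sham hearts. Early estrogen lies above all 4 Ovx and Sham values, while Late estrogen overlaps both. Early estrogen was higher than Sham by 0.64 ± 0.27, or 1.56-fold (SE; 0.68 and 0.61 within the replicates; limma adjusted p = 1), and higher than Ovx by 0.51 (0.87 and 0.16). Late estrogen minus Sham was 0.54, with 0.72 within replicate 1 and 0.35 within replicate 2.

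Of 12 other genes of clotting and of the endothelial granule, 10 were tested and none was called. Early estrogen had 8 of the 10 higher than Sham, with a median of 0.20. Plat, the tissue plasminogen activator released by endothelium, was higher in Early estrogen than in Ovx by 0.56 ± 0.25 (SE; 0.71 and 0.42 within the replicates; limma adjusted p = 1). Selp, the P-selectin of endothelial granules and platelets, had 5.73 and 4.55 in Ovx, against 2.83 and 1.83 in Sham hearts, a difference of 2.81 ± 0.95 (2.90 and 2.71; limma adjusted p = 1). Both Sham values lie below the 3.69 needed for testing, and the means were 3.68 in Late estrogen, 3.72 in Early estrogen and 5.14 in Ovx. Selp thus passed that filter only through its high Ovx values, so this too is a description of a dim probe set. The platelet marker Pf4 was also higher in Ovx than in Sham, by 1.03 ± 0.27 (1.60 and 0.47; limma adjusted p = 1), and the part of platelets in the Selp value was not tested.

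Taken by comparison, the 9 genes had no common direction in Ovx against Sham. There 4 genes were higher and 5 lower, with a median of -0.01 beside -0.03 over all tested probe sets. Groups did not overlap for 1 gene that was higher, Plvap, and for 3 that were lower, Kdr, Tek and Flt1, where 11% of all tested probe sets were higher without overlap and 14.1% lower. An unadjusted p under 0.05 was reached by 1 gene, where 1.47% of all reached it, and an adjusted p under 0.05 by 0 genes and 0% of all. The median was -0.10 within replicate 1 and 0.16 within replicate 2, and 0.24 without replicate 1 of Ovx.

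In Early estrogen against Ovx 8 of the 9 genes were higher, with a median of 0.39 beside 0.02 over all, and only Tie1 was lower, at -0.16. For 6 genes, Plvap, Vwf, Pecam1, Kdr, Flt1 and Nos3, both Early estrogen pools were above both Ovx pools, where 14.7% of all tested probe sets were, and none was below without overlap, where 12.3% were. No gene had an unadjusted p under 0.05, a level reached by 1.71% of all, and 0% of all passed the adjustment. The median was 0.37 within replicate 1 and 0.20 within replicate 2, and 7 to 9 genes were higher whichever array was left out.

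In Late estrogen against Ovx 6 genes were higher and Plvap, Pecam1 and Eng were lower, with a median of 0.25 beside 0.01 over all. Groups did not overlap for Kdr and Tek, which were higher, against 15.7% of all, and for Plvap, which was lower, against 13.4% of all. Plvap and Tek had an unadjusted p under 0.05, as did 4.36% of all, and 0% of all passed the adjustment. The median was 0.56 within replicate 1 and -0.10 within replicate 2, and it was 0.04 without replicate 1 of Late estrogen and 0.06 without replicate 1 of Ovx.

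In Late estrogen against Early estrogen 3 genes, Kdr, Tek and Tie1, were higher and 6 lower, with a median of -0.13 beside -0.01 over all. Tek was higher without overlap, against 15.5% of all, and Plvap, Eng and Nos3 were lower without overlap, against 16.3% of all. Plvap and Tek had an unadjusted p under 0.05, as did 3.87% of all, and 0% of all passed the adjustment. Without replicate 1 of Late estrogen the median of the 9 genes was -0.40.

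In Early estrogen against Sham 7 genes were higher and Tek and Tie1 lower, with a median of 0.28 beside -0.00 over all. For 6 genes, Plvap, Vwf, Pecam1, Flt1, Eng and Nos3, the pools did not overlap and were higher, against 12.1% of all, and Tek was lower without overlap, against 12.7% of all. Plvap and Vwf had an unadjusted p under 0.05, a level reached by 0.773% of all, and 0% of all passed the adjustment. This comparison and that with Ovx share the Early estrogen arrays.

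In Late estrogen against Sham 6 genes were higher and 3 lower, with a median of 0.15 beside -0.02 over all. Nos3 was higher without overlap, against 14.5% of all, and Eng lower without overlap, against 16.1% of all, by only -0.05. No gene had an unadjusted p under 0.05, which 3.37% of all had, and 0% of all passed the adjustment. The median was -0.04 without replicate 1 of Late estrogen and 0.26 without replicate 2.

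**Figure D3:**
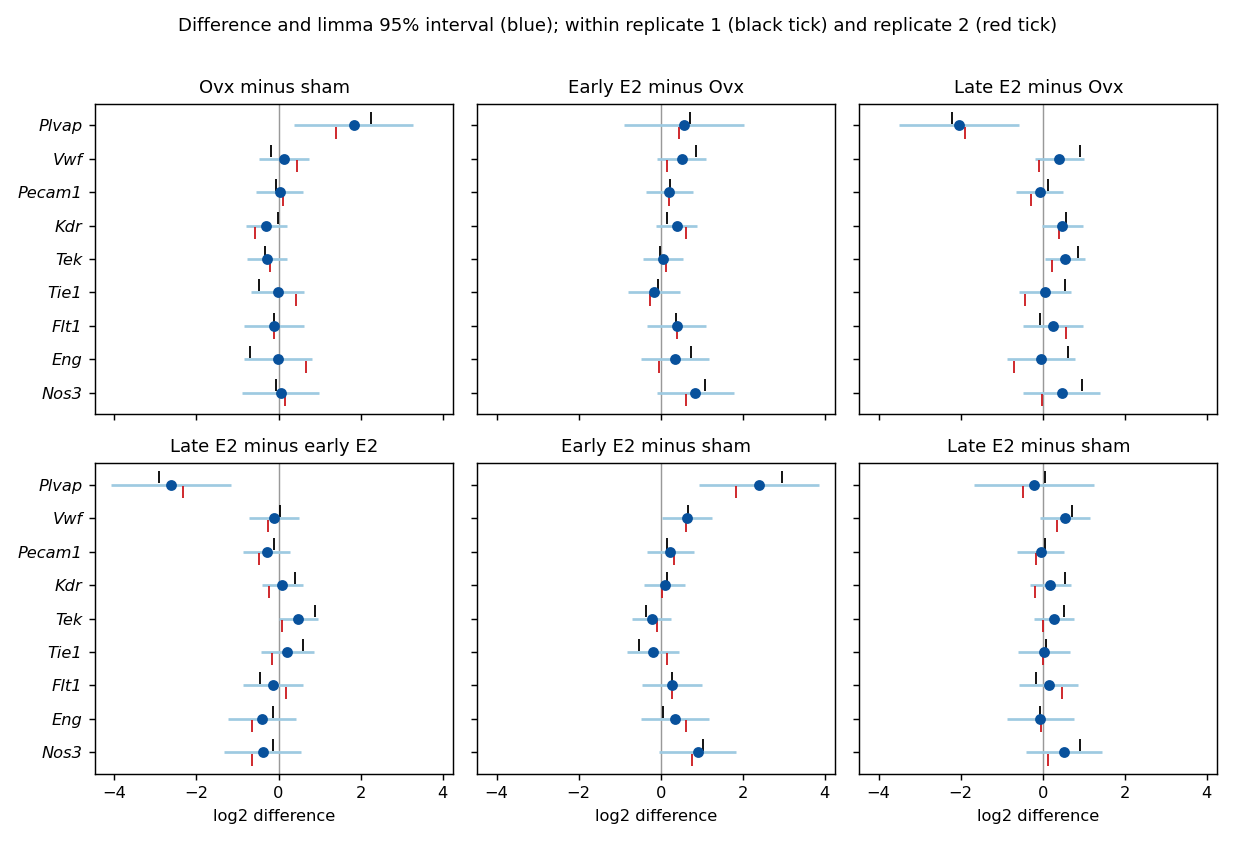
Log2 differences (horizontal axes) of the 9 endothelial genes in each of the 6 comparisons, with estradiol given as E2. Points are differences between group means, bars limma's 95% intervals, black ticks the difference within replicate 1 and red ticks that within replicate 2. Plvap stands apart in 4 panels, at 1.83, -2.04, -2.62 and 2.40, while the other 8 genes lie between -0.40 and 0.90.

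By group mean, Early estrogen was the highest of the 4 groups for 6 of the 9 genes, namely Plvap, Vwf, Pecam1, Flt1, Eng and Nos3, and Late estrogen for Kdr, Tek and Tie1. Neither Ovx nor Sham was the highest for any. The lowest group was Late estrogen for 3 genes, Early estrogen for 1, Ovx for 3 and Sham for 2.

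A wider list of 27 other endothelial genes, of which 25 were tested, was read in the same way. It holds transcription factors such as Erg and Sox17, junction genes such as Esam, and receptors such as Calcrl. In Late estrogen 22 of the 25 were higher than in Ovx, with a median of 0.30 (0.44 and 0.10 within the replicates), where 51.2% of all tested probe sets were higher. For 9 genes the pools did not overlap and were higher, against the 15.7% of all given above, and 0 were called. The count was 18 to 22 of 25 whichever array was left out, and 11 of 25 without normalization between arrays, where the median of all probe sets was itself shifted by -0.31. The 3 genes of smallest p were Podxl, a surface sialomucin (0.63 ± 0.20, SE), S1pr1, the sphingosine-1-phosphate receptor of endothelium (0.46 ± 0.20), and Ptprb, named above. Each had a limma adjusted p of 0.943 and was higher in both replicates.

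In Early estrogen 19 of the 25 were higher than in Ovx, with a median of 0.10, and Calcrl, the adrenomedullin receptor of endothelium, was the highest at 1.90 ± 0.77 (SE; 2.25 and 1.55 within the replicates; limma adjusted p = 1). In Early estrogen against Sham 12 were higher and 13 lower, with a median of -0.00, whereas 7 of the 9 genes first described were higher in that comparison. In Ovx 8 were higher and 17 lower than in Sham, with a median of -0.09. Late estrogen had 17 of 25 higher than Early estrogen, with a median of 0.09 (0.35 and 0.02 within the replicates), and 19 of 25 higher than Sham, with a median of 0.18 (0.34 and 0.02).

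**Figure D4:**
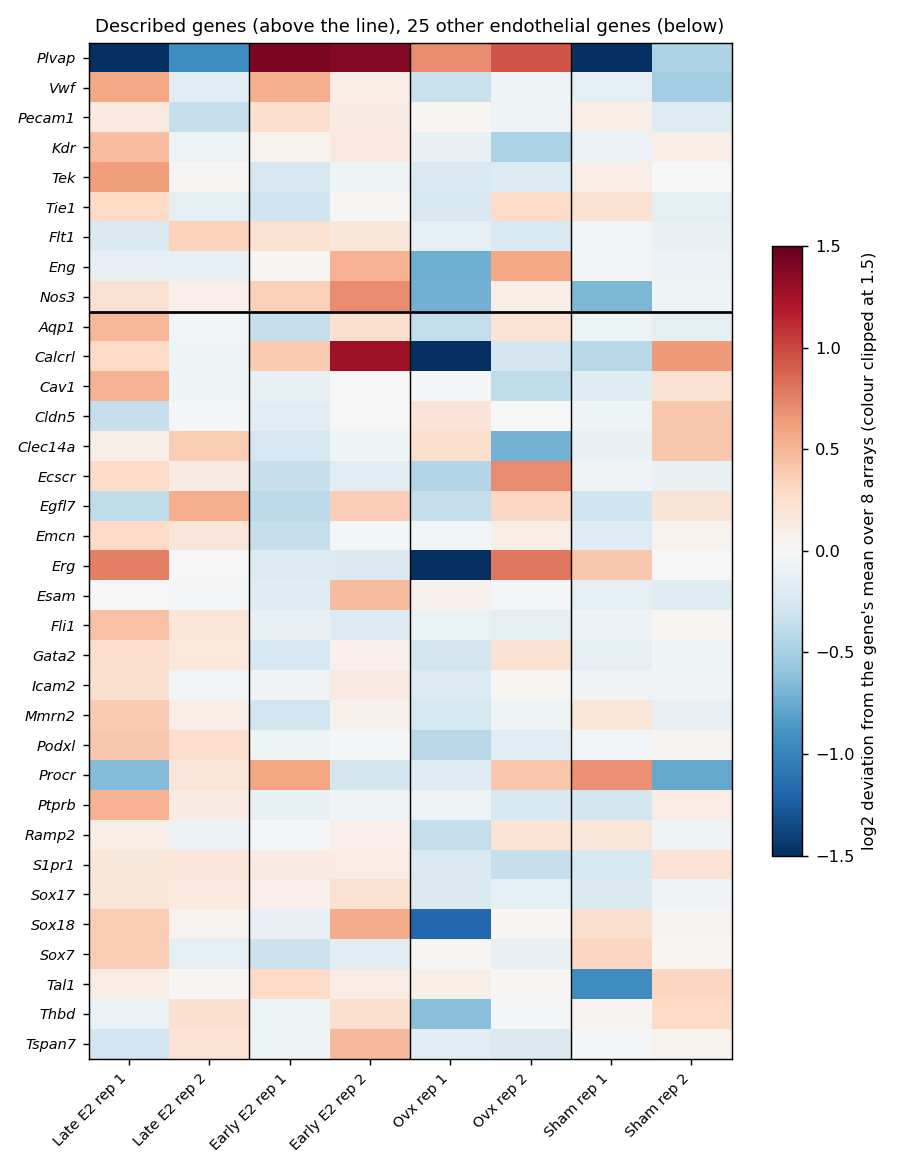
Log2 deviation of each gene from its own mean over the 8 arrays (colour, clipped at 1.5) for the 9 genes above the black line and 25 other endothelial genes below it, with the arrays of Late estrogen (Late E2), Early estrogen (Early E2), Ovx and Sham from left to right. Plvap is below its mean on the 4 Late estrogen and Sham arrays and above it on the 4 Early estrogen and Ovx arrays.

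Among the genes of lipid handling in heart capillaries 8 of 9 were tested, and in Late estrogen 7 of the 8 were higher than in Sham, with a median of 0.17. The median was 0.36 within replicate 1 and 0.08 within replicate 2, and 3 of the 8 were higher in both replicates. Meox2, a transcription factor of heart capillary endothelium, was higher by 0.76 ± 0.39 (SE; 0.75 and 0.77 within the replicates). Of the 6 lymphatic genes 5 were tested, with 1 higher and 4 lower in Late estrogen than in Ovx. In Late estrogen against Early estrogen 2 were higher and 3 lower, with a median of -0.05. Lyve1, the hyaluronan receptor of lymphatic endothelium and of resident macrophages, was lower in Late estrogen than in Early estrogen by -1.03 ± 0.39 (-1.82 and -0.24; limma adjusted p = 0.987).

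Markers of other cells in the heart also differed between the groups. The fibroblast list was lower in Late estrogen than in Ovx by group mean for 8 of 8 genes, with a median of -0.50 (-0.77 and -0.22 within the replicates). Pdgfra differed by only -0.01, with 0.07 within replicate 1 and -0.09 within replicate 2. Tcf21 was higher within replicate 2, at 0.32, against -1.29 within replicate 1. The summed normalized signal of the fibroblast list, on the linear scale, was 3334 to 4296 in Late estrogen, 4942 to 6031 in Early estrogen, 6007 to 6150 in Ovx, and 4671 to 5037 in Sham hearts. The macrophage and leukocyte list was lower in Late estrogen than in Early estrogen by group mean for 9 of 9 genes. Every gene differed less within replicate 2 than within replicate 1, which holds the dimmest array. Ptprc and Cd163 were higher within replicate 2, at 0.31 and 0.32, against -4.26 and -1.25 within replicate 1. The list was higher in Early estrogen than in Sham for 9 of 9 genes, each in both replicates. The sum of this list was 619 to 1051 in Late estrogen and 1234 to 1458 in Early estrogen. It was 887 to 2014 in Ovx and 915 to 958 in Sham hearts. In each of these 2 lists, and in the platelet list given below, 3 of the 4 Early estrogen and Ovx arrays exceeded every Late estrogen and Sham array in their sum. The exception was replicate 2 of Early estrogen in the fibroblast and platelet lists. In the macrophage and leukocyte list it was replicate 1 of Ovx. Plvap had no such exception, so these lists shared its split of the arrays only in part. The lymphatic sum (665 to 808 in Late estrogen, 726 to 886 in Ovx) did not split this way. Nor did that of the smooth muscle and pericyte list (1535 to 1671 and 1519 to 1560). A link of any of these lists to Plvap was not tested.

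Of the 5 blood markers 3 were tested, and all 3 were lower in Late estrogen than in Early estrogen, with a median of -1.08 within replicate 1 and -0.50 within replicate 2. Their sum was 5019 to 5437 in Late estrogen, 6591 to 6772 in Early estrogen, 5274 to 6939 in Ovx, and 6008 to 7171 in Sham hearts.

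The sum of the 25 other endothelial genes was 6399 to 7602 in Late estrogen, 5556 to 6524 in Early estrogen, 5298 to 5918 in Ovx, and 5733 to 6360 in Sham hearts. The sum of the 3 tested platelet genes was 314 to 382 in Late estrogen, 361 to 423 in Early estrogen, 421 to 658 in Ovx, and 222 to 319 in Sham hearts. The platelet split was weaker in the mean log2 signal of these genes. That mean was 5.97 on replicate 2 of Late estrogen. Replicate 1 of Early estrogen (6.15) and replicate 2 of Ovx (6.07) lay above it. Replicate 2 of Early estrogen (5.93) and replicate 1 of Ovx (5.95) lay below it. The heart muscle list summed to 45874 to 49953 in Late estrogen, 48077 to 49314 in Early estrogen, 46400 to 49330 in Ovx, and 48482 to 49621 in Sham hearts, with overlap of all 4 groups, and no tested gene of it had a deposited signal under 1303 on any array. No tested marker was at 0 on any array, but some were dim. The lowest deposited signal was 1.52 in the macrophage and leukocyte list and 1.73 in the platelet list. It was 2.59 in the blood list and 10.9 in the fibroblast list, where the array medians were 13.3 to 33.9. The part of these cells in the values of Plvap and the other endothelial genes was not tested.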

How the data were processed

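RNA from pools of 3 hearts was hybridised to 8 Affymetrix arrays, 2 in each of 4 groups taken from the labels. The deposited values are intensity, a linear MAS5 signal per probe set per the submitters' processing notes, and no source used here states how the authors scaled it. Detection calls were not used here.

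Here 57 control probe sets were left out of 31099. Signals were set to log2, quantile normalized and kept at a mean at or above the 40th percentile (18625 probe sets). All 8 arrays entered 1 model of the 4 group means, fitted with limma 3.58.1 in R 4.3.3 with its variance prior following signal, with two-sided tests and Benjamini-Hochberg adjustment at 0.05. The fit was tested on simulated data. A gene is represented by its brightest probe set. Symbols came from the platform annotation: 20826 probe sets had 1 symbol, 436 several and 9780 none. Of the first, 20758 matched RefSeq.

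The genes, lists and tests were chosen with earlier results of these data known. All 9 measured genes are named, with up to 3 genes of smallest p in each other list. Pf4, Ptprc, Cd163, Pdgfra and Tcf21 were named after their values were seen. Alternatives changed the normalization, filter, pseudocount, trend, replicate block, probe set and arrays. The number of arrays limits the precision.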

Additional observations from a re-analysis of the deposited data

Results flagged for a closer look

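Plvap in the 2 estradiol groups lay on opposite sides of Ovx, with both Late estrogen pools below it and both Early estrogen pools above it. Early estrogen minus Ovx was 0.57, with a 95% interval that holds both signs, so Early estrogen does not separate from Ovx. The difference between the estradiol groups was -2.62 on the log2 scale (Late estrogen minus Early estrogen; lower in both replicates; limma adjusted p = 0.987). The Late estrogen mean lies below the level needed for testing.

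Eng in the 2 estradiol groups lay on opposite sides of Sham, with both Late estrogen pools below it and both Early estrogen pools above it. Late estrogen minus Sham was only -0.05 and Early estrogen minus Sham was 0.34, each smaller than its SE, so neither separates from Sham. The difference between the estradiol groups was -0.40 (Late estrogen minus Early estrogen; lower in both replicates; limma adjusted p = 0.987).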

How the results depend on the processing

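None of the 54 differences (9 genes in 6 comparisons) passed an adjusted p of 0.05 in limma under any of 16 alternatives that gave a value (the 60th percentile filter leaves out Plvap), and 27 kept their sign in all of them. The count of called probe sets over the array was 0 as reported. Leaving out 1 array gave 0 to 1 in the test over the groups, 0 to 100 in Late estrogen minus Early estrogen, 0 to 65 in Late estrogen minus Ovx, 0 to 86 in Late estrogen minus Sham and 0 to 3 in Ovx minus Sham. The 100, 65 and 86 came without replicate 2 of Late estrogen, where its dimmest array stands alone and is assumed to vary like the others, and the 3 came without replicate 1 of Ovx. In Late estrogen minus Ovx, 1 probe set was called with no filter, with the 60th percentile filter, with 32 added and with the replicate block, and 2 without replicate 1 of Ovx.

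Same-numbered arrays share only a number in the labels. Their deviations correlated at 0.277 to 0.331 between groups, and the block lowered the median residual SD to 0.330, against 0.395 without it. With the replicate block Plvap in Late estrogen minus Early estrogen had a limma adjusted p of 0.545, and no gene described here changed its call. At an unadjusted p under 0.05 the block gave 1 to 3 of the 9 genes in each comparison, against 0 to 2 without it. The share of all probe sets under that level with the block is not given here. Whether the rise is particular to these genes therefore cannot be told.

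Without normalization between arrays the median of the 9 genes was 0.56 in Early estrogen minus Ovx, -0.71 in Late estrogen minus Early estrogen, -0.57 in Late estrogen minus Sham and -0.33 in Ovx minus Sham, where the medians of all probe sets were 0.18, -0.48, -0.62 and -0.31. Averaging a gene's probe sets gave -0.29 in Late estrogen minus Early estrogen and 0.0360 in Late estrogen minus Sham. Leaving out 1 array gave -0.401 to -0.0334 in Late estrogen minus Early estrogen, -0.0426 to 0.258 in Late estrogen minus Sham and -0.11 to 0.24 in Ovx minus Sham. The count of other endothelial genes higher in Late estrogen than in Ovx, whose alternatives were chosen after seeing the data, was 11 without normalization. The causes of these shifts were not tested.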
